A study of Mus musculus with 6 samples.

Results

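The Ifitm genes encode short membrane proteins that interferons induce in most cells. The 6 members described here were chosen by their summed count and are the rows of the count table whose symbol is Ifitm followed by a number and whose counts sum to at least 30 over the 6 libraries, namely Ifitm1, Ifitm2, Ifitm3, Ifitm5, Ifitm6 and Ifitm10. They are 6 of 44788 rows, and 5 of them are among the 16581 genes with enough reads to be tested. That count ran from 56728 for Ifitm3, 19530 for Ifitm2 and 18307 for Ifitm1 down to 265 for Ifitm6 and 86 for Ifitm5. Ifitm10, with exactly 30 counts, lay just inside the limit, and Ifitm7, with 24, just outside it.

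The libraries came from endometrium, the lining of the uterus, of female ICR mice dosed orally as newborns with 2.7 µmol/kg tamoxifen on days 2 to 5 after birth, a treatment that leads to adenomyosis, in which endometrium grows into the muscle wall. Both groups had received it, so the comparison has no healthy control. After 75 days 8 mice were injected intraperitoneally with the GnRH agonist Decapetyl at a daily 1.5 µg per 100 g body weight, on estrus days 3 through 9, while another 8 mice had solvent alone. Mating followed 4 weeks later, and the endometrium was scraped off on day 4 of pregnancy, shortly before embryos implant. The table holds 3 libraries with the agonist and 3 without it. The labels name no animal behind a library, so the p-values measure the spread between libraries, which may be partly technical.

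IFITM proteins sit in the plasma membrane and in endosomes, where they hinder the fusion of enveloped viruses with the cell. They can also block the syncytin-driven fusion of trophoblast cells, and human IFITM1 is used by pathologists as a marker of endometrial stroma. Interferons act through cell surface receptors, JAK kinases and STAT factors on promoters that carry an interferon-stimulated response element (ISRE), and interferon gamma also acts through a gamma-activated site (GAS).

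Ifitm5, Ifitm2, Ifitm1, Ifitm3 and Ifitm6 lie in this order within 68.967 kb of chromosome 7 (140948958 to 141017924, GRCm38), all annotated as protein-coding. Ifitm1 (140967221 to 140969825) is on the plus strand, and Ifitm2 (140954837 to 140955987), Ifitm3 (141009586 to 141010770), Ifitm6 (141015699 to 141017924) and Ifitm5 (140948958 to 140950291) are on the minus strand. Ifitm10 lies farther along the chromosome (142325837 to 142373753), and Ifitm7 is on chromosome 16 (13981699 to 13986888). All 7 symbols had a promoter sequence in RefSeq for GRCm38.p6, of 250 bases before and 50 bases from the start site.

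The start sites of the 2 most abundant members are shown because both carry the core of an interferon response element. The stretches below are 30 bases long, read 5′ to 3′ on the minus strand. Capitals mark each match to the ISRE core, written here as GAAA and GAAA with any 2 bases between, and searched on both strands.

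Ifitm3, chr7:141010714-141010743: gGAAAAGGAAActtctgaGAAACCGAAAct
Ifitm2, chr7:140955979-140956008: gGAAAAGGAAAttgctagagaaagggcggg

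Counted from the RefSeq start site as position 1, the Ifitm3 matches span positions 3 to 12 and 20 to 29, inside the first exon. Both are followed directly by CT, which makes the longer form of the element. A match to the GAS letters TTCNNNGAA, at positions 14 to 22, lies between them and overlaps the second. Ifitm2 has 1 core match at positions -46 to -37, upstream of its GENCODE exons, and no longer form or GAS match. The core is found in 3.44% of 32851 RefSeq promoters of this length, the longer form in 0.271% and the GAS letters in 8.30%. By gene, 20 of the 37 interferon-stimulated genes listed here that had a promoter entry carry the core (54.1%), against 3.99% of all 27025 genes. The matches are a description of letters, not a measurement of binding.

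Ifitm1, Ifitm5, Ifitm6, Ifitm7 and Ifitm10 have no core match in these windows. Ifitm6 has a single GAS match, in capitals here, at positions -10 to -2. It lies before the RefSeq start but inside the bounds of the gene in GENCODE. Of the 30 bases shown, 25 are annotated exon there.

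Ifitm6, chr7:141016884-141016913: cccatatgaacTTCCTTGAAacaagagctt

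Bases upstream of the start are shown for the 3 abundant members so that the windows can be compared. They run from position -250 to -27 for Ifitm2 and Ifitm3 and to -49 for Ifitm1 and hold no annotated exon base, though the Ifitm1 stretch lies inside the bounds of the gene in GENCODE. Capitals again mark the core.

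Ifitm3, chr7:141010771-141010994, minus strand: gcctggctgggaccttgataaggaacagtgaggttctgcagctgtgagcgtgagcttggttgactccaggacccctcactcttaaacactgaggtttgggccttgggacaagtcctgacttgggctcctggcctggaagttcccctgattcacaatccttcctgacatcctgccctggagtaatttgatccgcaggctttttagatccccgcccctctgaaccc
Ifitm2, chr7:140955988-140956211, minus strand: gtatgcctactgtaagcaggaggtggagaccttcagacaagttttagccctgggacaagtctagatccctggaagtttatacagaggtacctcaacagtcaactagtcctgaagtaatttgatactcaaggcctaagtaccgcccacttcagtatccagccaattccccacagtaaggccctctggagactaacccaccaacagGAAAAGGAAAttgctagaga
Ifitm1, chr7:140967826-140968027, plus strand: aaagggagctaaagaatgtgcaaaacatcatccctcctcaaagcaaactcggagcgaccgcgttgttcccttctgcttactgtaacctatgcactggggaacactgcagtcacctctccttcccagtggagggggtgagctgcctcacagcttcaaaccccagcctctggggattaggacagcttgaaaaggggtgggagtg

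Depth was similar in all libraries, from 11720958 to 14104266 counts, so that 3 counts, the limit that a count of 0 allows, stand for 0.203 to 0.275 CPM (read counts divided by library size, TMM-scaled). This covers counting error alone. Reads of Rn18s-rs5, an 18S ribosomal gene, made up 3.31% of no-agonist library 2 and 1.94% of agonist library 1, against 0.254 to 0.369% elsewhere. Over all genes edgeR's quasi-likelihood test called 0 of 16581 at a Benjamini-Hochberg adjusted p of 0.05 (0%). Unadjusted p-values under 0.05 were found for 691 higher and 844 lower genes. Calls in the higher and lower direction numbered 139 and 251 with DESeq2, 104 and 164 by likelihood ratio in edgeR, and none with limma-voom (0 each way).

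Ifitm3, Ifitm1 and Ifitm6 were each higher in all 3 agonist libraries than in any library without the agonist, while Ifitm2 overlapped between the groups and Ifitm5 was level. Average levels were 2.18-fold higher for Ifitm3, 3.68-fold for Ifitm1, 6.97-fold for Ifitm6 and 1.62-fold for Ifitm2. None of the 5 tested members passed the adjusted threshold of edgeR's quasi-likelihood test. Ifitm6 was testable only through its counts in the agonist libraries, so it is left out of the shares that follow. Of the other 4 tested members, 2 were separated in this direction, as were 6.92% of all genes tested, and 3 were higher at an unadjusted p under 0.05, as were 4.17%. A log2 fold change of at least 1 was reached by 2 of the 4 and by 4.95% of genes, and both separation and that size by 2 of the 4 and by 2.17%. In bulk tissue, more cells that express a gene and more RNA per cell cannot be told apart. These counts describe members proposed with results of these data known.

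**Figure D1:**
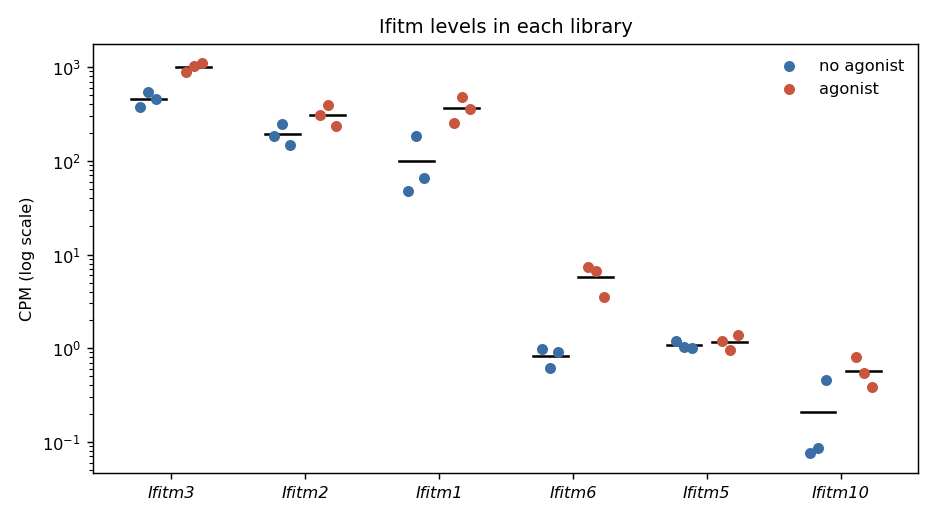
Level of each member in CPM (log axis) in the 3 libraries without the agonist (blue) and the 3 with it (red). Each point is a library and each bar the group mean. For Ifitm3, Ifitm1 and Ifitm6 all red points lie above all blue points, while the groups overlap for Ifitm2, Ifitm5 and Ifitm10.

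Ifitm3, the antiviral member of endosomes and also a classic marker of early germ cells under the name fragilis, was the most abundant. It measured 375, 548 and 456 CPM in no-agonist libraries 1 to 3 and 883, 1029 and 1094 CPM in agonist libraries 1 to 3. The highest library without the agonist stayed well below the lowest with it. The group levels were 1002 ± 108 CPM with the agonist and 459 ± 86.8 CPM without it (mean ± SD, n = 3 each), a log2 fold change of 1.13 ± 0.25 (SE). The adjusted p of edgeR's quasi-likelihood test was 0.262, and 0.146 to 0.653 over its alternatives apart from DESeq2 (adjusted p = 7.44e-04) and edgeR's likelihood ratio test (adjusted p = 0.0172), which both called it.

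Ifitm1, the member found mainly at the cell surface, had the widest spread among the abundant 3. It measured 47.2, 183 and 65.1 CPM without the agonist and 251, 480 and 357 CPM with it. No-agonist library 2 lay nearer to the lowest agonist library than to its own group. The group levels were 362 ± 115 against 98.5 ± 73.9 CPM (n = 3 each), a log2 fold change of 1.88 ± 0.53. The adjusted p of edgeR's quasi-likelihood test was 0.337, and 0.148 to 0.713 over its alternatives apart from DESeq2 (adjusted p = 0.0161) and the likelihood ratio test (adjusted p = 0.0416). Without no-agonist library 2 the log2 fold change was 2.70, and without no-agonist library 1 it was 1.55.

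Ifitm2, an endosomal member close to Ifitm3 in sequence, measured 184, 246 and 146 CPM without the agonist and 306, 394 and 233 CPM with it. Agonist library 3 lay below no-agonist library 2, so the groups overlapped. The log2 fold change was 0.70 ± 0.28 and the adjusted p of edgeR's quasi-likelihood test 0.520. No alternative called Ifitm2, and its log2 fold change ranged from 0.49 without agonist library 2 to 0.92 without no-agonist library 2.

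Ifitm6, described mainly in macrophages and bone marrow, was a low-count member. Its libraries held 13, 7 and 10 counts without the agonist against 91, 98 and 46 with it, or 0.979, 0.608 and 0.917 CPM against 7.28, 6.64 and 3.53 CPM. The lowest agonist library was above 3 times the highest other library. The cutoff on low counts was reached by 2 of the 3 libraries without the agonist and by all 3 with it, so Ifitm6 was tested because of its level in the agonist group, and its direction there is no support. The log2 fold change was 2.79 ± 0.47, with an adjusted p of 0.209 in edgeR's quasi-likelihood test and 0.0637 to 0.546 over its alternatives apart from DESeq2 (adjusted p = 1.68e-04) and the likelihood ratio test (adjusted p = 4.26e-04).

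Ifitm5, also called Bril and known from bone-forming cells, gave 16, 12 and 11 counts without the agonist and 15, 14 and 18 with it. Its log2 fold change of 0.11 ± 0.42 was smaller than its error. Ifitm10, a member of less known function, gave 1, 1 and 5 counts without the agonist and 10, 8 and 5 with it, and was not tested. Ifitm7 gave 0, 5 and 1 counts against 4, 5 and 9.

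Per kilobase of annotated exon, the order Ifitm3, Ifitm2, Ifitm1 held in each of the 6 libraries. Levels per kilobase without the agonist were 678 ± 128 CPM for Ifitm3, 293 ± 77.1 for Ifitm2 and 89.99 ± 67.5 for Ifitm1 (n = 3 each). With the agonist they were 1478 ± 159, 474 ± 123 and 331 ± 105, so Ifitm2 and Ifitm1 came within about their spread of each other. With the longest transcript as the length, Ifitm1 passed Ifitm2 in agonist library 3 (405 against 356 CPM per kilobase). Ifitm6 and Ifitm5 stood at 6.43 ± 2.22 and 1.54 ± 0.284 CPM per kilobase with the agonist.

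The mix of members also differed among libraries. Ifitm3 gave 53.9 to 68.1% of all counts over the 7 Ifitm symbols. The share of Ifitm1 was 7.75, 18.7 and 9.73% without the agonist against 17.3, 25.1 and 21.1% with it. Only no-agonist library 2 overlapped the agonist group in that share. Ifitm2 took 30.3, 25.1 and 21.8% without the agonist against 21.1, 20.6 and 13.8% with it, so the agonist libraries were all lower in that share. These shares are descriptions with no test.

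Close copies limit how exactly reads can be assigned. Of the 50-base windows in its annotated transcripts, Ifitm2 shares 48.5% with transcripts of other genes, Ifitm5 25.3%, Ifitm3 10.0%, Ifitm1 5.02%, Ifitm10 3.51% and Ifitm6 0%. Most of the Ifitm2 overlap, 219 of 294 shared windows, is with Gm45717, annotated over Ifitm5 and Ifitm2, which is not among the symbols of the table. Gm11951, which is among them, shares 90 windows with Ifitm2 and 20 with Ifitm3. It was counted at 3.69, 3.47 and 2.93 CPM without the agonist and 5.52, 6.44 and 3.84 CPM with it. Whether reads of Ifitm2 were placed on Gm11951 was not tested. Ifitm3 shares 20 windows with Ifitm2 and 15 with Ifitm1. Gm7676, which shares 39 windows with Ifitm1 and 29 with Ifitm3, was counted at 2.03, 9.30 and 2.47 CPM without the agonist and 9.21, 19.7 and 12.5 CPM with it. The libraries had the same order for Gm7676 as for Ifitm1 but for 1 neighbouring pair, and whether reads of Ifitm1 were placed there was not tested.

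The nearest genes on the chromosome did not share one direction. Of the 26 protein-coding genes annotated within 200 kb of the cluster, 19 were in the table and 15 were tested, with 5 higher, 10 lower and a median log2 fold change of -0.12, against 0.02 over all genes. B4galnt4, a galactosaminyltransferase gene 43.2 kb beyond Ifitm6, measured 4.44, 2.26 and 2.20 CPM without the agonist and 8.24, 16.1 and 14.4 CPM with it. Its log2 fold change was 2.11 ± 0.44, with an adjusted p of 0.254 in edgeR's quasi-likelihood test. Urah, of urate breakdown, lay the other way at 92.3 ± 34.3 against 38.2 ± 16.8 CPM without and with the agonist. Pkp3, of desmosomes, Sigirr, which restrains interleukin-1 signalling, and Ano9 next to it had log2 fold changes of -0.35, -0.39 and -0.003. The pseudogene Gm7514, between Ifitm1 and Ifitm3, measured 2.36 ± 0.814 against 1.12 ± 0.253 CPM.

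**Figure D2:**
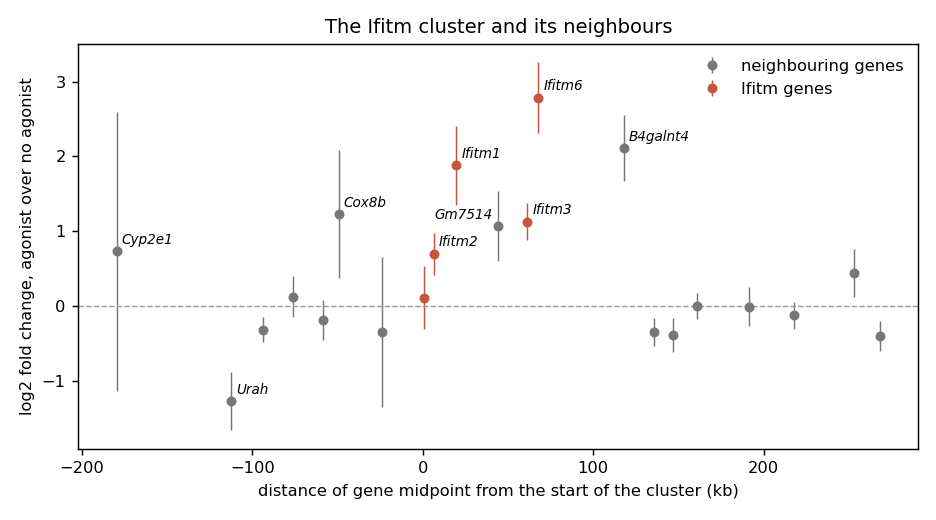
Log2 fold change (agonist over no agonist, bars are SE) of the Ifitm genes in red and of tested neighbours in grey, by the distance of the gene's midpoint from the start of the cluster in kb. Ifitm1, Ifitm3, Ifitm6, B4galnt4, Gm7514 and the low-count Cox8b lie above 1, while the genes on the far side of B4galnt4 lie between -0.40 and 0.44.

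Interferon itself was scarcely detected. Of 19 interferon ligand genes in the table, 17 had 0 counts in every library, among them Ifnb1, the Ifna genes and both lambda interferons. Interferon gamma, Ifng, had 9 counts in all. Ifne, the interferon epsilon that uterine epithelium makes without infection, was the 1 ligand tested and measured 5.95, 2.52 and 7.79 CPM without the agonist and 3.68, 2.44 and 1.30 CPM with it. The groups overlapped, and its log2 fold change was -1.13 ± 0.57 (unadjusted p = 0.0827 in edgeR's quasi-likelihood test, so not called).

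Among the 6 receptor genes, 2 were higher and 4 lower. Ifnar2, a chain of the type I receptor, measured 44.6, 39.5 and 40.1 CPM without the agonist and 61.2, 65.0 and 54.3 CPM with it, with no overlap (log2 fold change 0.54 ± 0.17, adjusted p = 0.397 in edgeR's quasi-likelihood test). Its partner chain Ifnar1 averaged 85.1 CPM with the agonist and 83.3 CPM without it, and the gamma receptor chain Ifngr1 averaged 56.0 and 57.5 CPM. Il10rb, a chain of the lambda interferon receptor, was separated the other way, at 67.5, 62.9 and 65.3 CPM without the agonist and 57.8, 52.4 and 46.7 CPM with it (log2 fold change -0.32 ± 0.17). Of all genes tested, 6.92% were separated as Ifnar2 was and 7.66% as Il10rb was. Ifngr2 measured 130, 167 and 367 CPM without the agonist and 153, 108 and 75.3 CPM with it.

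Of the 12 signalling genes, 2 were higher and 10 lower, with a median log2 fold change of -0.31. The kinase gene Jak2 measured 148, 166 and 149 CPM without the agonist and 171, 212 and 289 CPM with it, with no overlap (log2 fold change 0.54 ± 0.24). The regulatory factor genes Irf3 and Irf2 were separated the other way, with averages of 126 and 37.2 CPM without the agonist and 99.9 and 30.4 CPM with it (log2 fold changes -0.34 ± 0.17 and -0.29 ± 0.17). Over all genes tested, 6.92% were separated in the direction of Jak2 and 7.66% in that of Irf3 and Irf2. Irf7, the interferon regulatory factor that amplifies type I responses, measured 178, 46.4 and 336 CPM without the agonist and 265, 31.1 and 61.5 CPM with it. No-agonist library 3 was the highest. Irf9, a DNA-binding factor of the type I response, had a log2 fold change of -0.004 ± 0.36. Of the 5 inhibitor genes 2 were higher and 3 lower, and no receptor, signalling or inhibitor gene passed the adjusted threshold.

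The other interferon-stimulated genes did not lie with the abundant Ifitm genes. Of 48 tested, 9 were higher and 39 lower in the agonist group, with a median log2 fold change of -0.35. Of the 48, 2 (Cxcl10 and Cxcl9, both higher) reached the cutoff on low counts only with the help of agonist libraries. None passed the adjusted threshold of edgeR's quasi-likelihood test. In that test an unadjusted p under 0.05 was found for 1 lower gene and 0 higher ones, and 5.09% of all genes lay lower at that p. The direction of this list rested on 1 library: without no-agonist library 3, 39 of the 48 were higher and the median was 0.47. With library totals alone 13 were higher (median -0.18).

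Single genes show the same library. Isg15, a ubiquitin-like protein, measured 33.8, 15.1 and 68.6 CPM without the agonist and 70.3, 15.4 and 26.2 CPM with it. Ifit1, which binds viral RNA, measured 18.5, 5.13 and 79.3 CPM against 43.1, 19.7 and 27.2 CPM. Bst2, the tetherin that holds budding virus, measured 209, 173 and 436 CPM against 340, 144 and 158 CPM. For these genes no-agonist library 3 and agonist library 1 were the 2 highest libraries, and no-agonist library 2 was the lowest for Isg15 and Ifit1. Mx1, a dynamin-like antiviral protein, measured 30.7, 27.3 and 67.0 CPM against 34.6, 6.91 and 8.29 CPM. Oasl1, a brake on interferon production, was the 1 gene of the list that did not overlap, at 76.1, 68.0 and 166 CPM against 54.8, 18.9 and 11.0 CPM (log2 fold change -1.87 ± 0.62, adjusted p = 0.415 in edgeR's quasi-likelihood test). Over all genes tested, 7.66% were separated in that direction and 6.92% in the other.

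Library by library, on a log2 CPM scale centred on the 6 libraries, the mean of the 48 genes was -0.16, -0.76 and 1.25 without the agonist against 0.58, -0.57 and -0.34 with it. Ifitm3 on that scale was -0.85, -0.30 and -0.56 without the agonist against 0.39, 0.61 and 0.70 with it. The library with the most interferon-stimulated gene expression, no-agonist library 3, was thus among the low libraries for Ifitm3, and for Ifitm1 (-1.38) and Ifitm2 (-0.71). Agonist libraries 2 and 3, where Ifitm1 and Ifitm3 were highest, lay below 0 for the list.

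**Figure D3:**
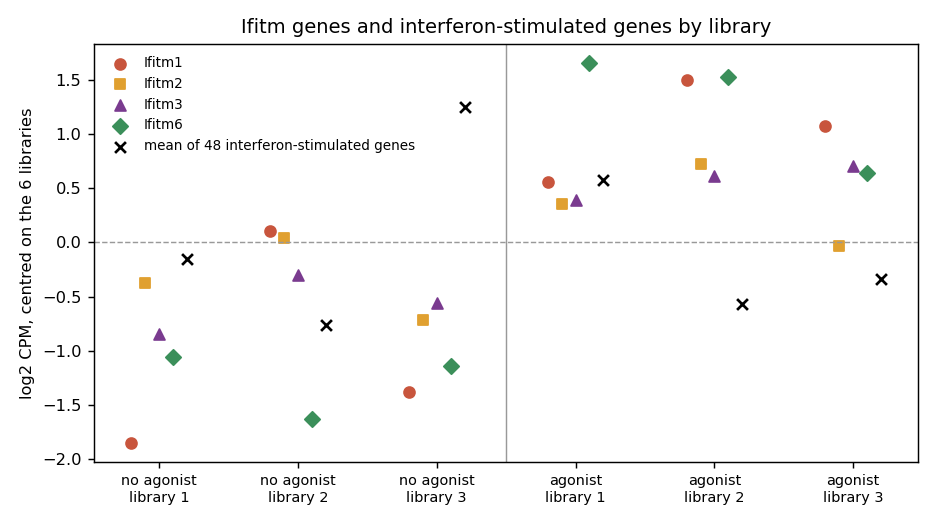
Centred log2 CPM of Ifitm1, Ifitm2, Ifitm3 and Ifitm6 and of the mean of 48 interferon-stimulated genes (crosses) in each library. The crosses peak at 1.25 in no-agonist library 3, where the Ifitm genes lie between -1.38 and -0.56, and they lie below 0 in agonist libraries 2 and 3.

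**Figure D4:**
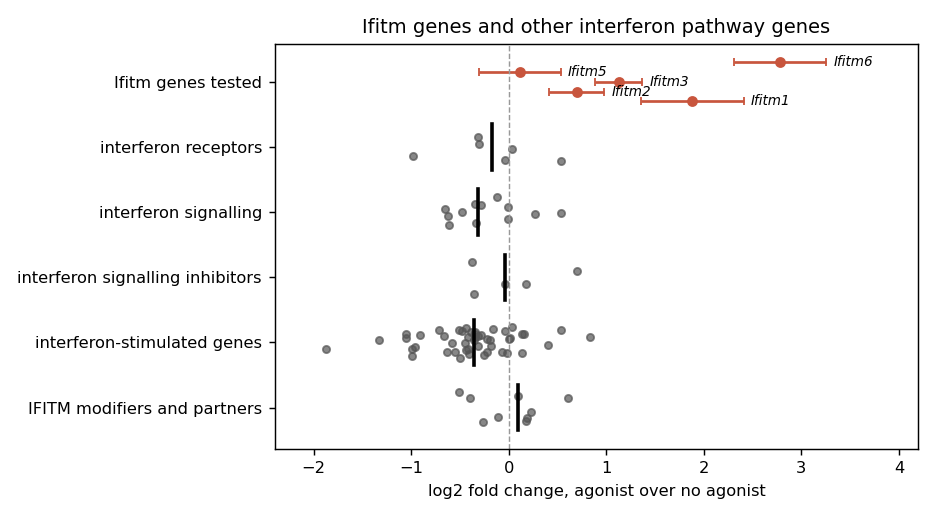
Log2 fold change (agonist over no agonist) of the 5 tested Ifitm genes (red, bars are SE) and of each tested gene of the interferon lists (grey), with list medians as black lines. The interferon-stimulated genes centre on -0.35 here, though their median was 0.47 without no-agonist library 3. Ifitm1, Ifitm3 and Ifitm6 lie to the right of every one of them. The place of Ifitm6 is no support, because it was tested through its agonist libraries.

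Among 9 modifiers and partners of IFITM proteins, 5 were higher and 4 lower, and none passed the adjusted threshold of edgeR's quasi-likelihood test. Zmpste24, a membrane protease that acts together with IFITM proteins against viruses, measured 54.5, 55.6 and 49.6 CPM without the agonist and 51.9, 90.1 and 102 CPM with it. Cd81, a tetraspanin that binds IFITM1, lay lower in all agonist libraries, at 448, 433 and 537 CPM against 328, 372 and 292 CPM (log2 fold change -0.51 ± 0.21, adjusted p = 0.526). Vapa, a cholesterol-traffic adapter bound by IFITM3, also lay lower without overlap (log2 fold change -0.27 ± 0.18), and 7.66% of all genes tested were separated in that direction. Nedd4, the ubiquitin ligase that marks IFITM3 for breakdown, Zdhhc20, which attaches palmitate to it, and the methyltransferase gene Setd7 had log2 fold changes of 0.23, -0.11 and 0.10, each within about 1 SE of 0. Those of Cd9, Cd63 and Vcp were 0.18, 0.18 and -0.40.

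The syncytin genes, whose cell fusion IFITM proteins can block, gave 4 counts in all for Syna and 0 for Synb. The relatives outside the Ifitm name that share the CD225 domain were low or untested, with log2 fold changes of 0.64 ± 0.51 for Prrt2, 0.58 ± 0.72 for Syndig1, 0.73 ± 0.94 for Tusc5 and 0.06 ± 0.57 for Prrt1.

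Markers of the cells that a scraping can hold differed between the groups. Summed CPM of 12 epithelial markers was 8752 to 13881 without the agonist and 4830 to 7302 with it, with all 12 lower. The sum of 12 macrophage and dendritic cell markers was 1087 to 2991 against 521 to 1075 CPM, with 10 of 12 lower. In that sum Cd14 alone gave 804, 700 and 1997 CPM without the agonist and 593, 516 and 195 CPM with it. Most of the 12 overlapped between the groups when read singly. NK and T cell markers summed to 11.1 to 27.0 against 28.1 to 59.5 CPM, with 10 of 11 tested higher, but 8 of the 11 reached the cutoff on low counts only with the help of agonist libraries. Gland markers summed to 100.0 to 168 against 180 to 408 CPM, with 4 of 4 tested higher, among them 1 (Cxcl15) that reached the cutoff in that way. Of these 4, Foxa2 was level, at 13.9 CPM without the agonist and 14.5 CPM with it, and overlapped, as did Aldh1a1. In agonist library 1, Sox17 alone gave 162 of the 180 CPM. B and plasma cell markers overlapped in their sums, 78.2 to 115 against 104 to 359 CPM, with 3 of 4 tested higher and a median log2 fold change of 1.74. In that list Igkc averaged 83.0 CPM without the agonist and 232 CPM with it, but its groups overlapped, with agonist library 1 at 88.9 CPM. Mzb1 averaged 1.60 and 6.42 CPM. Cd79a, which also needed agonist libraries to reach the cutoff, averaged 0.798 and 3.38 CPM. Cd79b lay the other way, at 8.30 CPM without the agonist and 6.68 CPM with it. Ovary and oviduct markers overlapped in their sums, 7.31 to 23.9 against 9.98 to 194 CPM, with 1 of 3 tested higher and 2 lower. The higher one, the oviduct gene Ovgp1, measured 1.21, 2.61 and 2.93 CPM without the agonist and 173, 14.2 and 3.84 CPM with it. Inha and Star overlapped, with log2 fold changes of -0.09 and -0.04.

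Sums overlapped between the groups for stroma (4650 to 7510 against 4938 to 6119 CPM, 10 of 14 markers higher) and for endothelium (452 to 585 against 561 to 813 CPM, 12 of 12 higher). Stromal and epithelial markers were thus found in every library. Averaged over the 6 libraries, the stromal ones ranged from 1638 CPM for Col3a1 to 27.1 CPM for Hand2. Smooth muscle sums overlapped too (9289 to 23512 against 4022 to 14106 CPM), with 11 of 11 markers lower, a median log2 fold change of -0.81 and no-agonist library 3 the highest. The part of these markers in the Ifitm levels was not tested. The direction of Ifitm6, described mainly in macrophages and bone marrow, is no support, and its link to these cells was not tested. The 12 macrophage and dendritic cell markers are given as a description alone. Of those, 3 (Cd68, Itgam and Cd14) lay lower without overlap, as did 7.66% of all genes tested. Their log2 fold changes were -1.63, -2.90 and -1.42. The other 9 overlapped, with 7, such as C1qa (-0.39) and Lyz2 (-0.09), lower and Itgax (0.48) and Cx3cr1 (0.09) higher. Neutrophil markers were few, with sums of 4.00 to 17.6 against 16.6 to 19.7 CPM. Of 9 embryo and trophoblast markers, 6 had 0 counts, and their sums reached 7.12 CPM at most.

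Across the 6 libraries, the genes whose log2 CPM was most like that of each member were read by Pearson's r among 12872 genes of at least 5 CPM (12873 for Ifitm5 and Ifitm6). For Ifitm1 they were Marcksl1-ps4 (r = 0.996), Bend5 (r = 0.994), the TGF-beta pseudoreceptor Bambi (r = 0.992), Gm7676 (r = 0.990) and the histone gene H3f3a (r = 0.987). Bambi measured 9.87, 17.2 and 11.2 CPM without the agonist and 20.9, 30.2 and 28.2 CPM with it, and was also among the 5 for Ifitm3 (r = 0.973), as were Gm166, Slc5a11 and Tspan15 (r from 0.971 to 0.982). The genes nearest to Ifitm2 differed from both sets. They were Cbx1 (r = 0.999), Ccnb1, Rad54b, Hmmr and Rbmx2, and Ccnb1, a mitotic cyclin, measured 3.84, 8.51 and 1.47 CPM against 10.6, 23.9 and 6.22 CPM.

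For Ifitm6 the nearest were Oscp1 (r = 0.992), Cln6, the receptor gene Ifnar2 (r = 0.983), Dram1 and B230118H07Rik. Ifitm5 was nearest to Cpsf7 (r = 0.998), Morn1, Smyd3, Mycbpap and Zfp641. With 6 points that share library preparation and depth, and so many genes to choose from, values this high are a description alone. By Spearman's rho, 22 genes tied at 1 with Ifitm1, 30 with Ifitm2 and 14 with Ifitm3.

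Leaving out a library, or changing the scaling, the filter or the tool, left the log2 fold changes of Ifitm1, Ifitm2 and Ifitm3 above 0 in every fit. They spanned 1.55 to 2.70 for Ifitm1, 0.49 to 0.92 for Ifitm2 and 1.00 to 1.30 for Ifitm3, while that of Ifitm5 reached -0.02. That of Ifitm6 spanned 2.60 to 3.05 in the fits that held it. Its sign is no support, because Ifitm6 was tested through its level in the agonist libraries.

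**Figure D5:**
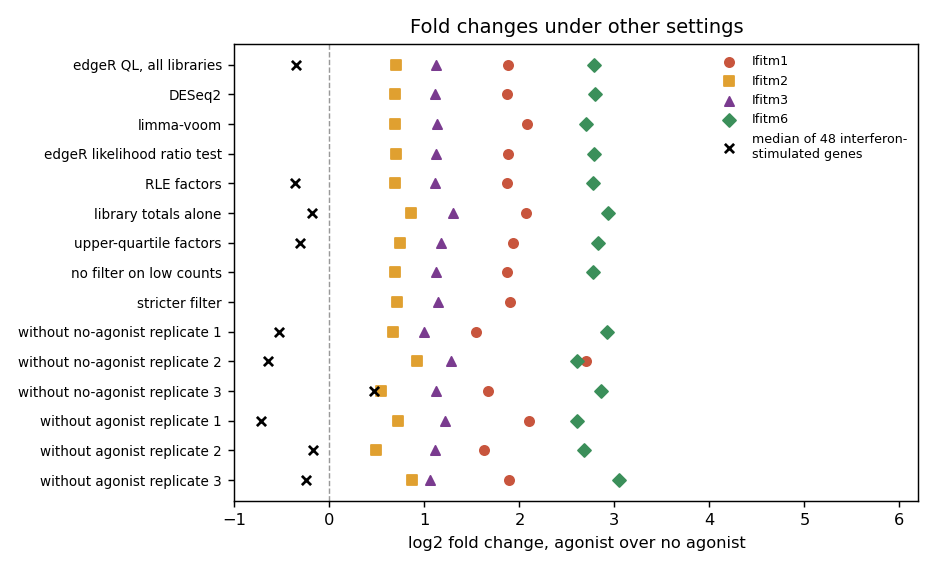
Log2 fold change (agonist over no agonist) of Ifitm1, Ifitm2, Ifitm3 and Ifitm6 under each setting on the vertical axis, and the median of 48 interferon-stimulated genes (crosses) for the scalings and left-out libraries. The Ifitm points stay to the right of 0, though those of Ifitm6 are no support because it was tested through its agonist libraries. The crosses move from -0.35 with all libraries to 0.47 without no-agonist replicate 3.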

How the data were processed

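Endometrial RNA with an integrity number above 8 was made into single-end Ion Total RNA-Seq libraries and sequenced on an Ion Proton, per the labels' protocols. The authors deposited whole-number read counts per gene symbol, and reads were placed on mm10 (GRCm38) and counted with HTSeq 0.6.1, per the submitters' processing notes. For aligner, annotation and strand setting, nothing is stated (not given in the sources used here), and genes overlapping on opposite strands may share counts.

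With R 4.3.3 and edgeR 4.0.16, genes were kept by filterByExpr, scaled by TMM factors and compared by the quasi-likelihood test, adjusted over 16581 genes (Benjamini-Hochberg). Alternatives used DESeq2 1.42.0, limma 3.58.1 (voom), other scalings and filters, and each library left out. The test was tried on simulated counts first. Likeness used log2 CPM with a prior count of 2. Coordinates and lengths are from GENCODE M21, 1-based.

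Members and lists were chosen with earlier results of these data known. All Ifitm symbols, the 5 genes most like each member, named interferon genes, up to 5 per list by p and neighbours within 200 kb were named. Values of some genes that this rule names are not reported here.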

Additional observations from a re-analysis of the deposited data

How the results depend on the processing

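With DESeq2 and with edgeR's likelihood ratio test, Ifitm1 (adjusted p = 0.0161 and 0.0416) and Ifitm3 (adjusted p = 7.44e-04 and 0.0172) passed the threshold that they missed in the quasi-likelihood test. These tools called 139 and 104 genes higher and 251 and 164 lower, against 0 and 0, and without a filter on low counts 8 were higher and 28 lower. The cause was not tested. Leaving out 1 library at a time gave adjusted p-values of 0.228 to 0.713 for Ifitm1, 0.480 to 0.763 for Ifitm2 and 0.179 to 0.653 for Ifitm3, and 0 genes higher and 0 to 1 lower over all genes. These fits leave 2 libraries in 1 group. The number of interferon-stimulated genes higher ranged from 3, without no-agonist library 2, to 39 of 48, without no-agonist library 3, and was 4 without agonist library 1 and 14 without agonist library 2. Scaling by library totals alone put the all-gene median at 0.18 (log2), against 0.02. Ifitm6 had no value under the stricter filter. Low depth limits Ifitm5, Ifitm7 and Ifitm10.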
